A study of Mus musculus with 12 samples.

Results

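The genes described here are 10 that were more abundant in macrophages lacking the histone methyltransferase DOT1L than in wild-type macrophages: Gprc5c, Cd24a, Kif1a, Cnn3, B3gnt7, Vash1, Mamdc2, Cyp4f18, Jup and Ppp1r9a. They are 10 of the 24445 genes measured. They were chosen by their higher read counts in knockout (KO) than in wild-type (WT) cells without or with lipopolysaccharide (LPS), so the KO over WT differences of these genes are given as a description, with no test. Their response to LPS, averaged over the 2 genotypes, was not used in the choice and is tested.

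Messenger RNA was sequenced from bone marrow-derived macrophages of C57BL/6 mice, cultured for 7 to 8 days in medium with L929-conditioned medium, which supplies the macrophage growth factor M-CSF. The 4 groups were WT and myeloid DOT1L KO cells without LPS, and WT and KO cells given 10 ng/mL of LPS from E. coli O111:B4 for 3 hours, with 3 libraries each. The labels call them biological replicates and say nothing more on separate animals, so that p-values measure only the spread between these libraries. The labels name Lyz2, a lysozyme gene active in myeloid cells, as the gene of the deleting strain, and the age of the mice was not used here. A deletion tied to Lyz2 acts only in cells in which that gene has been active, and cells that escape it can remain in a KO culture.

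DOT1L methylates histone H3 within its globular core along transcribed genes, and LPS, from the outer membrane of bacteria, activates macrophages through the receptor TLR4. The 10 genes belong to no single pathway. Gprc5c and Cd24a encode cell surface proteins, Kif1a, Cnn3, Vash1 and Ppp1r9a encode proteins of the microtubule and actin cytoskeleton, and Jup encodes a junction protein. B3gnt7 and Cyp4f18 encode enzymes, and Mamdc2 encodes a protein with MAM domains.

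The libraries held 8.64 to 13.54 M counts (M for mega) over 1 transcript per gene. Levels are given as scaled CPM, the counts of a gene per M counts of its library, and the floor of 3 counts corresponds to 0.222 to 0.347 CPM before TMM scaling. Dot1l itself was at 101 ± 16.4 CPM in WT and 90.0 ± 6.79 CPM in KO without LPS, and at 65.7 ± 4.51 and 69.6 ± 4.06 CPM with LPS (SD, n = 3 each). Since reads were counted along all of the Dot1l transcript and no source used here names the exons removed, this level does not check the genotype. Lyz2 was at 6250 ± 835 CPM in WT and 2760 ± 237 CPM in KO without LPS, and at 7000 ± 850 and 3130 ± 263 CPM with LPS (SD, n = 3 each). WT replicate 1 lay farthest from its group mates in both conditions, at a root mean square log2 distance of 0.474 without and 0.428 with LPS against 0.362 to 0.395 for the other WT libraries and 0.253 to 0.314 for the KO libraries. The libraries with replicate number 2 came from males by their Xist level (0.202 to 0.646 CPM, against 542 to 822 CPM elsewhere), so each group held 1 male and 2 female libraries.

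All 10 genes passed the filter on low counts in each comparison, and in each gene every KO library lay above every WT library in both conditions. The same separation was found in 6.76% of 11622 genes tested without LPS, in 11.1% of 11264 genes tested with LPS and in 2.75% of genes in both conditions. Because the genes were chosen on this contrast, nothing is read from the 10 of 10. The counts of the 10 genes summed to 86.1 to 96.3 CPM in WT and 175 to 201 CPM in KO without LPS, and to 158 to 182 and 305 to 333 CPM with LPS. In these cultures, more cells of a type and more RNA per cell cannot be told apart.

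**Figure D1:**
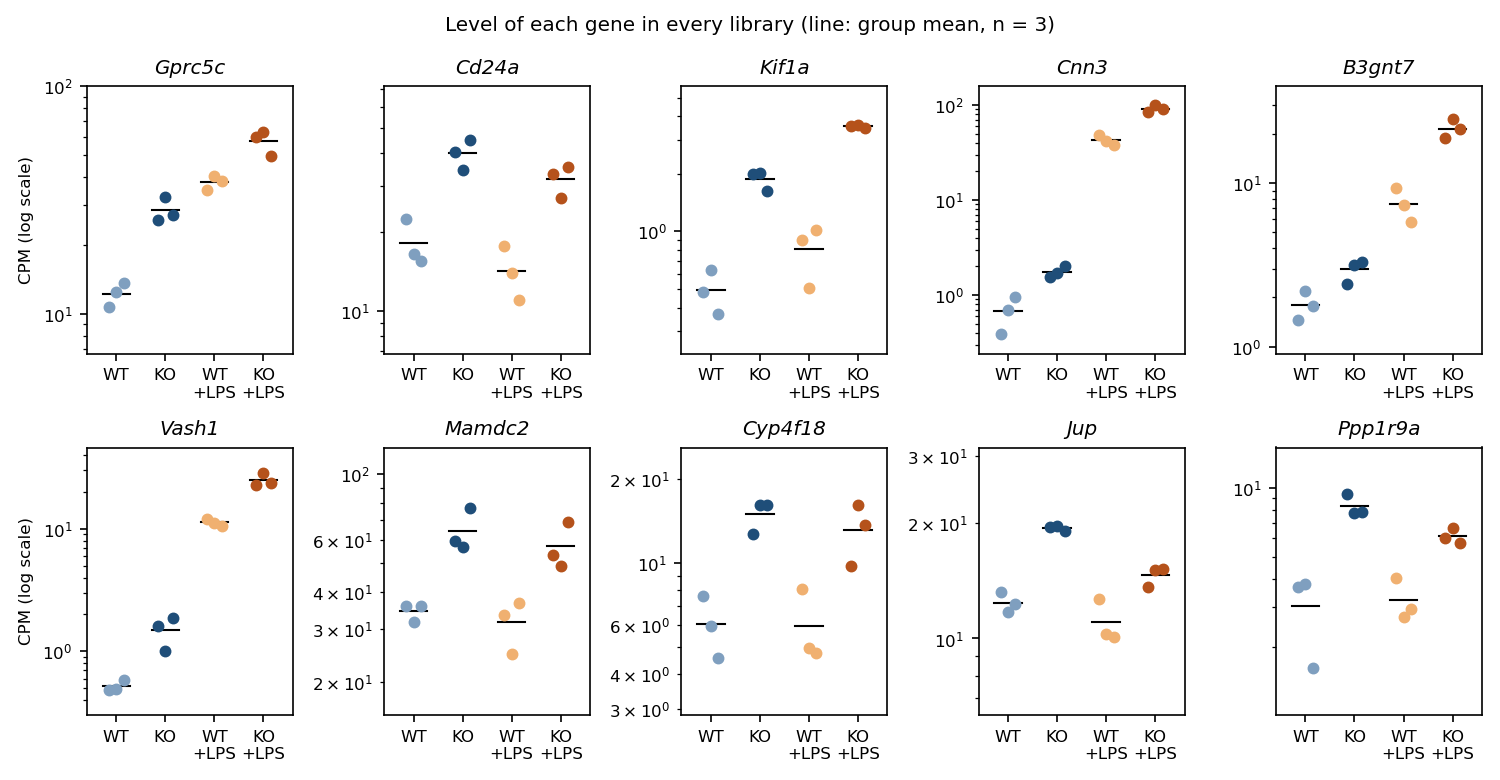
Scaled CPM (log axis, a separate range for each gene) of the 10 genes in all 12 libraries, with a point for each library and a line at the mean of the 3 libraries of a group. In each panel the KO points lie above the WT points of the same condition, and Cnn3, Vash1 and B3gnt7 rise the most from the untreated to the LPS-treated libraries.

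Gprc5c (chromosome 11, 114851150 to 114872617, plus strand, mm10) encodes an orphan receptor of the retinoic acid-inducible group of G protein-coupled receptors. Replicates 1, 2 and 3 of untreated WT cells held 10.7, 12.4 and 13.6 CPM, and those of untreated KO cells held 25.9, 32.6 and 27.1 CPM. With LPS the values were 35.0, 40.1 and 38.5 CPM in WT and 59.6, 62.6 and 49.5 CPM in KO. The 4 groups did not overlap, and their order ran from untreated WT over untreated KO and LPS-treated WT to LPS-treated KO. In the authors' RPKM, which scale by total reads, untreated KO (7.26 to 8.94 RPKM) and LPS-treated WT (5.90 to 7.49 RPKM) overlapped. The log2 fold change of KO over WT was 1.24 ± 0.14 (SE) without LPS and 0.58 ± 0.11 with LPS, or 2.35-fold and 1.5-fold. Of its 3 RefSeq transcripts, the 2 with fewer reads held nearly the same counts as each other in each library. The first of these held 37.2 ± 2.89% of the reads of the most abundant transcript in WT and 31.4 ± 2.00% in KO without LPS (SD, n = 3 each). With LPS it held 38.1 ± 1.46% in WT and 34.7 ± 3.36% in KO (SD, n = 3 each). If these 2 share their reads, lie within the most abundant transcript and shared reads were counted for each, most of its count lay outside them in each group. This was not checked.

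Cd24a (chromosome 10, 43579169 to 43584265, plus strand) encodes a small, heavily glycosylated protein that is anchored to the membrane by a lipid and binds Siglec receptors and P-selectin. It was at 22.3, 16.5 and 15.5 CPM in untreated WT and at 40.4, 34.5 and 45.0 CPM in untreated KO. After LPS it was at 17.7, 13.9 and 11.0 CPM in WT and at 33.3, 26.9 and 35.3 CPM in KO. The genotypes stood apart by the same amount in both conditions, with log2 fold changes of 1.17 ± 0.17 without and 1.17 ± 0.17 with LPS. The untreated and LPS-treated libraries of each genotype overlapped.

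Kif1a (chromosome 1, 93015455 to 93102039, minus strand), a kinesin motor that carries vesicles along microtubules and is best known from neurons, had the fewest reads of the 10 genes per length. Untreated WT libraries held 5, 9 and 5 reads (0.484, 0.632 and 0.368 CPM), and untreated KO libraries held 32, 26 and 25 reads (1.99, 2.01 and 1.62 CPM). The LPS-treated WT libraries held 6, 5 and 9 reads (0.899, 0.505 and 1.02 CPM), and the KO libraries held 40, 39 and 37 reads (3.54, 3.6 and 3.48 CPM). Pooled over the 3 libraries of each group and set against the TMM-scaled total counts, KO held 3.75 times the WT reads without LPS (exact binomial 95% interval 2.26 to 6.54) and 4.49 times with LPS (2.78 to 7.62). These intervals cover counting error only. The fitted log2 fold changes of 1.91 ± 0.30 and 2.13 ± 0.30 were the highest of the 10 genes in both conditions. The 4 transcripts of Kif1a held nearly the same reads in each library and cannot be told apart.

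Cnn3 (chromosome 3, 121426541 to 121458205, plus strand) encodes calponin 3, which binds actin filaments, and it was near the floor in untreated cells and among the most abundant of these genes with LPS. Without LPS it held 4, 10 and 13 reads in WT (0.387, 0.702 and 0.958 CPM) and 25, 22 and 31 reads in KO (1.55, 1.70 and 2.01 CPM). With LPS it was at 48.8, 41.8 and 38.0 CPM in WT and at 84.6, 99.4 and 90.2 CPM in KO. The lowest LPS-treated WT library lay far above the highest untreated KO library. KO over WT was 1.33 ± 0.33 on the log2 scale without LPS and 1.09 ± 0.11 with LPS, and the pooled reads without LPS gave a ratio of 2.48 (exact binomial 95% interval 1.58 to 4.0). Untreated WT replicate 1 held the fewest reads, and without it the untreated difference was 1.10.

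Vash1 (chromosome 12, 86678700 to 86695688, plus strand) encodes vasohibin 1, a secreted inhibitor of vessel growth that also removes the last tyrosine of alpha-tubulin together with its partner SVBP. The untreated libraries held 5, 7 and 8 reads in WT (0.484, 0.492 and 0.589 CPM) and 26, 13 and 29 reads in KO (1.62, 1.0 and 1.88 CPM). The LPS-treated libraries were at 12.0, 11.2 and 10.6 CPM in WT and at 22.9, 28.8 and 23.6 CPM in KO. As for Cnn3, every LPS-treated library of either genotype lay above every untreated library. The log2 fold change of KO over WT was 1.54 ± 0.35 without LPS, where the pooled reads gave a ratio of 2.92 (exact binomial 95% interval 1.75 to 5.08), and 1.15 ± 0.13 with LPS.

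Ppp1r9a (chromosome 6, 4902872 to 5165661, plus strand) encodes neurabin 1, which binds actin filaments and brings protein phosphatase 1 to them. Its values were 3.67, 3.79 and 1.62 CPM in untreated WT, where replicate 3 lay below the others, and 9.38, 7.73 and 7.86 CPM in untreated KO. With LPS they were 4.04, 2.73 and 2.96 CPM in WT and 6.01, 6.64 and 5.73 CPM in KO. The LPS-treated KO values lay between those of WT and of untreated KO without overlap, while the WT values with and without LPS overlapped. KO over WT was 1.49 ± 0.28 without and 0.94 ± 0.20 with LPS on the log2 scale. Without untreated WT replicate 3 the first became 1.17.

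Jup (chromosome 11, 100368856 to 100397839, minus strand) encodes plakoglobin, a relative of beta-catenin that links cadherins to the cytoskeleton in desmosomes and adherens junctions. It held 13.2, 11.7 and 12.3 CPM in untreated WT and 19.5, 19.7 and 19.1 CPM in untreated KO, the narrowest relative spread of the 10 genes among untreated KO libraries (coefficient of variation 1.6%). With LPS it held 12.7, 10.3 and 10.1 CPM in WT and 13.6, 15.1 and 15.2 CPM in KO. The gap between the genotypes was the smallest of the 10 in both conditions, at 0.67 ± 0.10 and 0.41 ± 0.14 on the log2 scale. With LPS the lowest KO library was 1.07 times the highest WT library, WT replicate 1, and without that library the difference was 0.51.

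B3gnt7 (chromosome 1, 86303221 to 86307305, plus strand) encodes an N-acetylglucosaminyltransferase of the Golgi that extends sugar chains such as those of keratan sulfate. It was at 1.45, 2.18 and 1.77 CPM in untreated WT and at 2.42, 3.17 and 3.31 CPM in untreated KO. After LPS it was at 9.29, 7.37 and 5.80 CPM in WT and at 18.8, 24.6 and 21.4 CPM in KO. The untreated groups were close, with the lowest KO library at 1.11 times the highest WT library, while with LPS this ratio was 2.03. The log2 fold change of KO over WT was 0.72 ± 0.24 without and 1.54 ± 0.17 with LPS, so the point estimates ran in the opposite order to those of Gprc5c.

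Cyp4f18 (chromosome 8, 71988482 to 72009668, minus strand) encodes a cytochrome P450 that hydroxylates leukotriene B4, a lipid attractant of leukocytes. The untreated libraries held 7.64, 5.97 and 4.57 CPM in WT and 12.7, 16.1 and 16.2 CPM in KO. The LPS-treated libraries held 8.09, 4.95 and 4.77 CPM in WT and 9.73, 16.1 and 13.7 CPM in KO. KO replicate 1 was the lowest KO library and WT replicate 1 the highest WT library in both conditions. KO over WT was 1.34 ± 0.20 without and 1.17 ± 0.24 with LPS on the log2 scale, and without WT replicate 1 these values were 1.52 and 1.42. The GENCODE model of Zfp961, on the opposite strand at 71951038 to 71993792, overlaps Cyp4f18, and no source used here says whether reads were counted by strand. In the RefSeq coordinates the 2 genes do not overlap and lie 18.1 kb apart. The counts of Zfp961 did not pass the test between genotypes, at -0.06 ± 0.16 without LPS (adjusted p = 0.971) and -0.03 ± 0.14 with LPS (adjusted p = 0.938).

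Mamdc2 (chromosome 19, 23302609 to 23448497, minus strand) was among the most abundant of the genes. It was at 36.0, 31.8 and 36.0 CPM in untreated WT and at 59.7, 56.9 and 76.8 CPM in untreated KO. With LPS it was at 33.5, 24.7 and 36.7 CPM in WT and at 53.2, 49.2 and 69.0 CPM in KO. Replicate 3 was the highest and replicate 2 the lowest KO library in both conditions. The log2 fold change of KO over WT was 0.92 ± 0.13 without and 0.85 ± 0.17 with LPS.

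**Figure D2:**
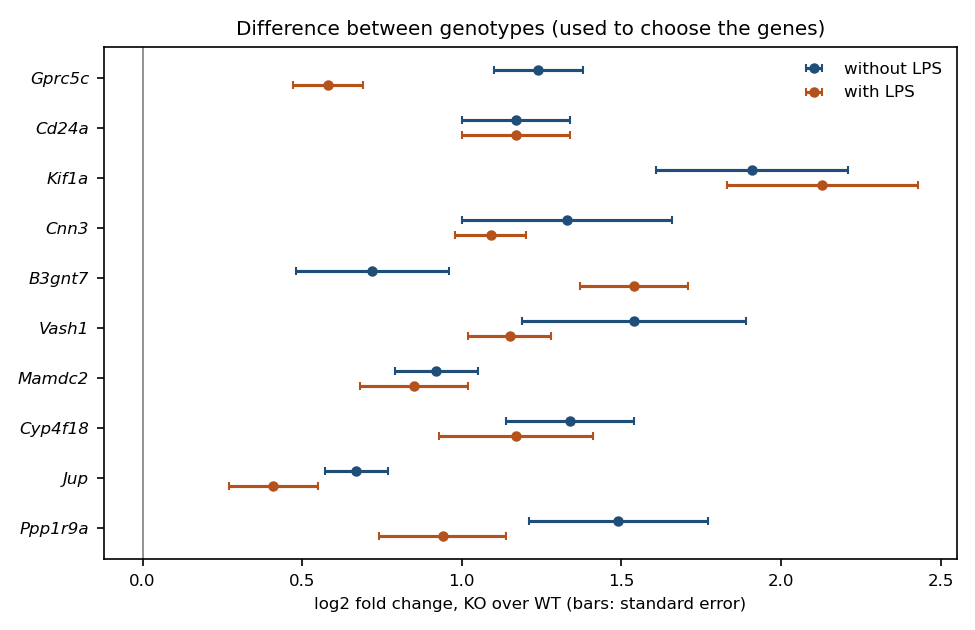
Log2 fold change of KO over WT (horizontal axis) for each of the 10 genes without LPS (blue) and with LPS (orange), with bars of 1 standard error from edgeR fits of 6 libraries each. All points lie to the right of 0, which follows from the choice of the genes, and range from 0.67 to 1.91 without LPS and from 0.41 to 2.13 with LPS.

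Over the 10 genes the median log2 fold change was 1.28 without and 1.12 with LPS, against 0.00 and -0.01 over all genes tested. Within the female libraries the differences ran from 0.62 to 2.11 without LPS and from 0.34 to 1.83 with LPS. Between the 2 male libraries of a condition they ran from 0.54 to 1.67 and from 0.55 to 2.83, and all 10 genes were higher in KO in each case. The difference between the LPS responses of the genotypes is part of the same contrasts and is given without a test. It ran from -0.62 ± 0.18 for Gprc5c to 0.85 ± 0.31 for B3gnt7, with -0.53 ± 0.37 for Ppp1r9a, -0.36 ± 0.33 for Vash1 and 0.03 ± 0.25 for Cd24a between them. Over all 11984 genes tested, 0.0% passed the threshold for this difference (288 genes at an unadjusted p under 0.05).

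The response to LPS was then tested over both genotypes, as the mean of the WT and KO responses in 12 libraries. LPS raised 5 of the 10 genes and lowered 2, where 33.6% of 11984 genes tested were called higher, 36.7% lower and 70.3% in either direction. The share of called genes among the 10 is thus close to that of all genes. The range was wide, however, from 5.80 to -0.34 on the log2 scale. The median over the 10 genes was 0.34, against -0.04 over all genes tested.

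Cnn3, Vash1 and B3gnt7 rose the most. Cnn3 rose by 5.80 ± 0.13 on the log2 scale, or 55.6-fold (adjusted p = 7.29e-14, edgeR's quasi-likelihood test). Vash1 rose by 4.21 ± 0.15, or 18.6-fold (adjusted p = 6.13e-12), and B3gnt7 by 2.44 ± 0.15, or 5.43-fold (adjusted p = 2.77e-09). In WT alone the responses were 5.90 ± 0.20, 4.39 ± 0.23 and 2.02 ± 0.23, and in KO 5.69 ± 0.17, 4.03 ± 0.18 and 2.87 ± 0.19. All 3 genes were higher in the LPS-treated library than in the untreated library of the same genotype and replicate number in 6 of 6 pairs.

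The 250 bases before the RefSeq start of these 3 genes are shown because these members rose the most with LPS. Of the 10 genes, 7 had such windows in the RefSeq table of GRCm38.p6: B3gnt7, Kif1a, Cnn3, Ppp1r9a, Cyp4f18, Jup and Vash1. The windows lie at chr3:121426291-121426540 for Cnn3, chr12:86678450-86678699 for Vash1 and chr1:86302971-86303220 for B3gnt7, all on the plus strand and written 5′ to 3′. Capitals mark each match to 1 of the 10 motifs searched on both strands.
Cnn3: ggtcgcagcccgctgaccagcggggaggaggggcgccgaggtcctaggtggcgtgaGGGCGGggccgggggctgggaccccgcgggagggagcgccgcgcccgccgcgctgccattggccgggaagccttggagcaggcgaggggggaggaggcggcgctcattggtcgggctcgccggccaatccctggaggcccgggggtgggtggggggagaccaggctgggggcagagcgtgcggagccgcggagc
Vash1: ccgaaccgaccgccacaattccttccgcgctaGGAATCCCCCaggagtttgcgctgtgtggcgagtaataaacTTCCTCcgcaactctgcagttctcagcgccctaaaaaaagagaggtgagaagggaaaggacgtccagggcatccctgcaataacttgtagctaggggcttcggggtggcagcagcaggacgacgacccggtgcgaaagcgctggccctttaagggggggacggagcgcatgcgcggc
B3gnt7: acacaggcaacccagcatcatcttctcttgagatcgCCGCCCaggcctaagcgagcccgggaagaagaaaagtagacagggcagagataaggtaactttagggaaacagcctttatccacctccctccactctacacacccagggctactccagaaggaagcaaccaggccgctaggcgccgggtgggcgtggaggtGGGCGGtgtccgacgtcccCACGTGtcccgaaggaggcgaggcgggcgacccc

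The motifs were the NF-kB decamer and the CArG box, AP-1 (TGANTCA), CRE (TGACGTCA), GAS (TTCNNNGAA), the TATA box (TATAAA), C/EBP (TTGCNNAA), the GC box (GGGCGG), an ETS core (GAGGAA) and the E-box (CACGTG), and the matches printed do not overlap. The window of Cnn3 held a GC box at -194, and that of B3gnt7 held GC boxes at -214 and -53 and an E-box at -34, counted from the start. Vash1 had the NF-kB decamer on the minus strand at -218 and an ETS core at -177, also on the minus strand. Among the 32536 windows of the same length, 33.0% held a GC box, 23.4% an ETS core, 7.28% the NF-kB decamer and 6.04% the E-box. The letters of AP-1 (6.73% of windows), CRE (1.56%), GAS (7.04%), C/EBP (9.57%), the TATA box (12.3%) and the CArG box (1.48%) were in none of the 3. A match is a description of the letters and not a bound site. The 3 windows were rich in CpG, with 28 in Cnn3, 20 in Vash1 and 16 in B3gnt7 against a median of 6, and their GC content was 78.8%, 60.0% and 61.6% against a median of 52.4%. These traits were not limited to the 3 genes. The second window of Ppp1r9a held 35 CpG, the second of Kif1a 22 and that of Jup 13. Cyp4f18 held 3, and the first windows of Kif1a and Ppp1r9a held 1 and 8. GC boxes were also in windows of Jup, Cyp4f18 and Ppp1r9a, E-boxes in windows of Kif1a and Ppp1r9a, and an ETS core in that of Cyp4f18. Of the members that did not rise with LPS, Jup also held the NF-kB decamer, in 2 overlapping matches at -57 and -56, as did the second of the windows of Ppp1r9a, at -191.

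Gprc5c rose by 1.32 ± 0.09 on the log2 scale (adjusted p = 9.65e-09), with 1.63 ± 0.13 in WT and 1.01 ± 0.12 in KO and 6 of 6 pairs higher. Kif1a rose by 0.79 ± 0.22 (adjusted p = 0.00536), higher in 5 of 6 pairs. The exception was WT replicate 2, whose LPS-treated library held 5 reads against 9 without LPS. The values of Kif1a in LPS-treated KO libraries lay above all untreated ones, while those of the WT libraries overlapped.

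Cd24a and Jup were the 2 genes that fell. Jup fell by 0.29 on the log2 scale (-0.29 ± 0.08, adjusted p = 0.00562) and was lower in 6 of 6 pairs, with -0.17 ± 0.12 in WT and -0.41 ± 0.11 in KO. Cd24a changed by -0.34 ± 0.13 (adjusted p = 0.0278), also lower in 6 of 6 pairs, with -0.36 ± 0.19 in WT and -0.33 ± 0.17 in KO. Neither call held in the female libraries alone, where the values were -0.36 for Cd24a (adjusted p = 0.0825) and -0.29 for Jup (adjusted p = 0.055). Cd24a also lost its call when any of 6 single libraries was left out, namely untreated WT replicate 1, untreated KO replicates 1 and 3, LPS-treated WT replicates 2 and 3 and LPS-treated KO replicate 2 (adjusted p from 0.0507 to 0.0833).

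The other 3 genes did not pass the test. Mamdc2 was at -0.15 ± 0.11 (adjusted p = 0.251), Cyp4f18 at -0.12 ± 0.17 (adjusted p = 0.561) and Ppp1r9a at -0.18 ± 0.18 (adjusted p = 0.395). Same-numbered libraries of a genotype deviated together, and with the replicate number as a block Mamdc2 passed at -0.16 (adjusted p = 0.00924). The calls of the other members were the same in this edgeR fit. Cd24a was at -0.34 (adjusted p = 3.32e-05) and Jup at -0.31 (adjusted p = 0.00102). Ppp1r9a passed at -0.34 without untreated WT replicate 3 (adjusted p = 0.0389), the library in which it was lowest.

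The LPS responses depend on how libraries are scaled. TMM, the scaling used here, gave factors of 1.15 to 1.26 in untreated and 0.773 to 0.847 in LPS-treated libraries, and scaling by total counts instead moved the median of all genes by -0.57, from -0.04 to -0.61. Under total-count scaling, a setting added after the data were seen, no member changed sign. Cnn3 was then at 5.23, Vash1 at 3.64, B3gnt7 at 1.87 and Gprc5c at 0.75, all still called, while Kif1a was at 0.22 and lost its call (adjusted p = 0.40). Cd24a (-0.91), Jup (-0.86), Ppp1r9a (-0.75), Mamdc2 (-0.72) and Cyp4f18 (-0.69) were then all called lower, as were 8491 of the 11984 genes, against 1899 called higher. The genotype differences moved by no more than 0.04 with the same change.

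**Figure D3:**
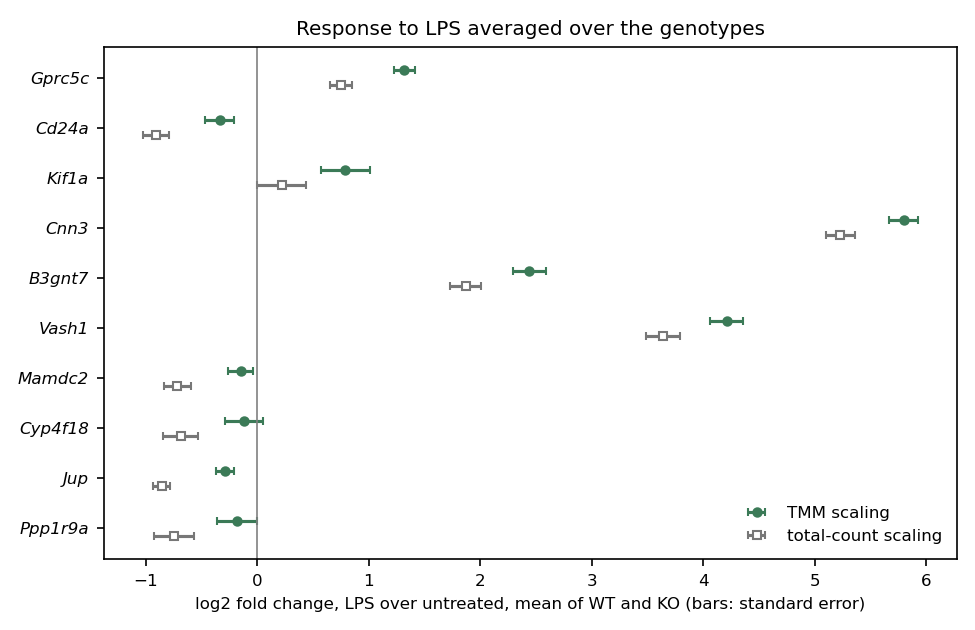
Log2 fold change from untreated to LPS-treated cells, averaged over WT and KO, for each of the 10 genes with TMM scaling (filled circles) and with total-count scaling (open squares), with bars of 1 standard error from edgeR fits of 12 libraries. Cnn3, Vash1 and B3gnt7 lie farthest to the right with either scaling, at 5.80, 4.21 and 2.44 and at 5.23, 3.64 and 1.87.

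Levels of different genes were compared as the authors' RPKM values, which divide by transcript length. In untreated WT cells Mamdc2 (11.0 ± 0.699 RPKM) and Cd24a (10.5 ± 1.55) came first and overlapped. Cyp4f18 (3.76 ± 0.784) and Gprc5c (3.26 ± 0.529) followed and overlapped each other, and Jup (2.61 ± 0.056) lay below both. B3gnt7 was at 0.736 ± 0.18, Cnn3 at 0.365 ± 0.165 and Ppp1r9a at 0.333 ± 0.132, the last pair overlapping, and Vash1 (0.0893 ± 0.0127) and Kif1a (0.0637 ± 0.0182) came last and overlapped (SD, n = 3 each). In untreated KO cells the order differed only in its first pair, which also overlapped, with Cd24a at 24.5 ± 3.61 and Mamdc2 at 21.5 ± 3.89 RPKM. With LPS, Cnn3 took the first place without overlap, at 15.4 ± 1.06 RPKM in WT and 33.7 ± 2.04 RPKM in KO, while Kif1a stayed last at 0.0707 ± 0.0236 and 0.317 ± 0.00404 RPKM (SD, n = 3 each). Vash1 moved above Ppp1r9a in both genotypes and above Jup in KO, where it was at 2.98 ± 0.308 against 2.16 ± 0.125 RPKM.

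For each member, the 2 genes with the most similar log2 CPM over the 12 libraries were taken from 9520 genes, with the 10 members themselves left out. These correlations share libraries and depth and are a description. Cnn3 was most like Mmp13, a collagenase (r = 0.998), and Il10, an anti-inflammatory cytokine (r = 0.997). Mmp13 was at 44.1 and 100 CPM in untreated WT and KO and at 1820 and 3790 CPM with LPS. Vash1 was most like Plaat3 (r = 0.994) and Mmp13 (r = 0.993), and B3gnt7 was most like Timp1, an inhibitor of metalloproteinases (r = 0.974), and Wfdc17 (r = 0.974). Gprc5c was followed by Col18a1, a collagen of basement membranes (r = 0.968), and Arrdc4 (r = 0.961).

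Members with little LPS response were most like other genes of that shape. Cyp4f18 was most like Tgfbi, a secreted matrix protein (r = 0.99; 66.7, 116, 63.9 and 113 CPM as group means, WT before KO and without before with LPS), and Clec10a, a lectin receptor (r = 0.969). Ppp1r9a came with Tgfbi (r = 0.895) and Mmp8 (r = 0.884), below its correlation with the member Cyp4f18 (r = 0.917), and Cd24a was most like Pbxip1 (r = 0.949) and Clec10a (r = 0.933). Jup shared Pbxip1 (r = 0.96) and had Ptgs1, the cyclooxygenase 1 gene (r = 0.92). Mamdc2 came with Clec4a2 (r = 0.90) and Svip (r = 0.896). Kif1a, which unlike these members was called higher with LPS under TMM (0.79), came with Cpe, a carboxypeptidase (r = 0.944), and H2-Aa, an MHC class II chain (r = 0.914).

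Genes of the same family, complex or enzymatic step as a member were tested between genotypes. They were listed for that relation and not for how they moved, though earlier results of these data were known. Of 99 such relatives, 97 had a row in the files. Without LPS, 69 were tested and 0 passed (8 at an unadjusted p under 0.05, and 0 by DESeq2 or limma-voom). Over all 11622 genes the share was also 0.0% in either direction, with 841 genes at an unadjusted p under 0.05, 49 called by DESeq2 and 0 by limma-voom. The median log2 fold change of the relatives was 0.03, against 0.00 for all genes.

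With LPS, 61 relatives were tested and 2 passed, where 1.0% of all genes tested were called higher, 0.124% lower and 1.13% in either direction. At an unadjusted p under 0.05 (edgeR) there were 18 of the 61 relatives and 1553 of all 11264 genes, a larger share of the relatives. The difference between these shares was not tested. Selp, the gene of P-selectin, which binds CD24, was higher in KO, and Por, the reductase that passes electrons to cytochromes P450 such as CYP4F18, was lower. Selp held 4.94, 2.53 and 2.27 CPM in WT and 8.58, 11.4 and 6.67 CPM in KO, a log2 fold change of 1.5 ± 0.29 (adjusted p = 0.0421). Por held 240, 251 and 249 CPM in WT and 195, 181 and 170 CPM in KO, a log2 fold change of -0.45 ± 0.08 (adjusted p = 0.0324). Neither gene's groups overlapped. Over 16 alternative settings Selp ran from 0.80 to 1.87 and was called in 6 (adjusted p from 0.000549 to 0.263), and Por ran from -0.50 to -0.40 and was called in 7 (adjusted p from 0.000821 to 0.229).

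Both calls were lost when any single LPS-treated library other than WT replicate 1 was left out. The number of calls over all genes also varied with the library left out, from 16 to 359 higher and from 1 to 186 lower. Without LPS-treated WT replicate 1, 7 relatives passed: Selp, Siglece, B3gnt5 and Tiam1 were higher in KO and Por, Kif1c and Kif16b lower. Without untreated WT replicate 1, 5 relatives passed in the untreated cells: Kif5c, Madd and B3gnt5 were higher and Nrp2 and Por lower.

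Apart from Por, the most abundant relative of each member did not pass in either condition. Gprc5b, a receptor of the family of Gprc5c, was at -0.12 ± 0.08 without LPS (adjusted p = 0.856) and -0.22 ± 0.13 with LPS (adjusted p = 0.492). Ctnnb1, the beta-catenin gene, was at -0.01 ± 0.08 and 0.12 ± 0.08 (adjusted p = 0.994 and 0.504), and B3gnt2 at 0.06 ± 0.07 and -0.02 ± 0.08 (adjusted p = 0.945 and 0.918). The other most abundant ones were Siglec1 (0.17 and -0.09), Kif5b (-0.10 and -0.02), Tagln2 (-0.13 and -0.11), Ttl, the tubulin tyrosine ligase (-0.14 and -0.11), Nrp2 (-0.31 and -0.17) and Ppp1ca, a catalytic subunit of protein phosphatase 1 (0.07 and 0.02). With LPS the median over the relatives was -0.02, against -0.01 for all genes. The difference between the LPS responses of the genotypes passed for 0 of 72 relatives (1 at an unadjusted p under 0.05).

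**Figure D4:**
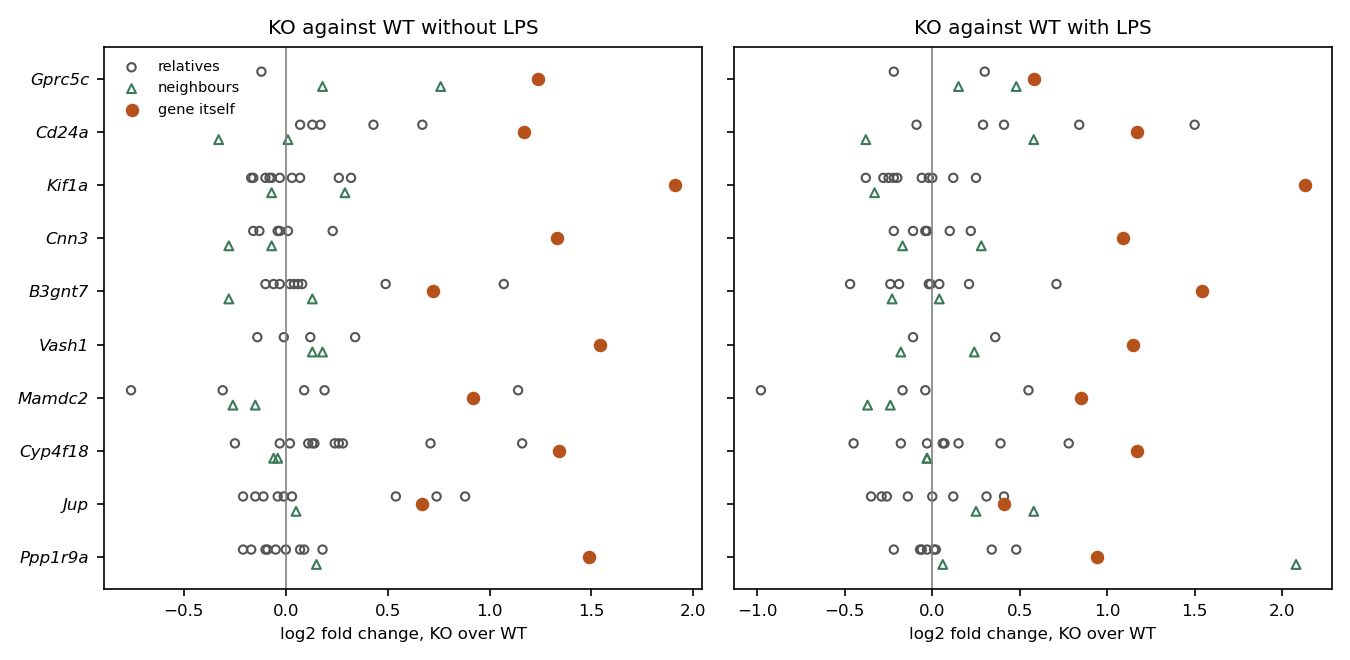
Log2 fold change of KO over WT for each gene (orange), its tested relatives (open circles) and its nearest tested neighbours on the chromosome (triangles), without LPS on the left and with LPS on the right. The relatives lie around 0, with medians of 0.03 and -0.02, and of all relatives and neighbours only Selp and Por passed the test, both with LPS.

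In the average over genotypes, LPS raised 28 of 72 relatives and lowered 26, with a median of 0.01, where 33.6% of all genes were called higher and 36.7% lower. Under total-count scaling 11 rose and 46 fell, with a median of -0.56, where 15.8% of all genes were called higher and 70.9% lower. With either scaling these counts are near the share of all genes. Apart from Tpm1, the relatives given with values for this response kept their direction and their call with both scalings. Of the relatives of Vash1, its partner Svbp rose by 1.61 ± 0.11 on the log2 scale (adjusted p = 8.65e-09), while Vash2, the second vasohibin, fell (-4.60 ± 0.26, adjusted p = 1.01e-09). In WT cells Vash2 was at 8.01 ± 0.381 CPM without LPS and at 0.248 ± 0.217 CPM with LPS (SD, n = 3 each), which is at the floor. Among the glycosyltransferases, B3gnt5 (2.95 ± 0.17) and B3gnt2 (1.80 ± 0.05) rose with B3gnt7, and B3gnt8 (-2.53 ± 0.12) and B4galt1 (-1.08 ± 0.06) fell.

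In the actin family of Cnn3, 6 of 9 relatives rose and 0 fell (1 did not pass and 2 were not tested), among them Tpm4, a tropomyosin (1.39 ± 0.06), and Tagln2, a transgelin (0.96 ± 0.06). Cnn3 rose by far more than either. With total-count scaling 3 of these relatives rose, and Tpm1, which was called higher with TMM (0.20), was called lower (-0.37). Over all genes 33.6% were called higher and 36.7% lower with TMM, and 15.8% and 70.9% with total counts, which the counts of the families given here are to be read against. Of the relatives of Kif1a, which are kinesins apart from Madd, 4 of 10 were higher and 6 lower (1 and 8 with total-count scaling), and Kif5c rose by 1.73 ± 0.13. For Gprc5c, Gprc5a rose by 1.70 ± 0.39 and Gprc5b fell (-1.42 ± 0.08). For Cd24a, which itself fell slightly, Selp rose by 3.28 ± 0.28 and Fut7, a fucosyltransferase that makes selectin ligands, fell (-3.01 ± 0.44). Of the 15 relatives of Cyp4f18, 1 rose, 5 fell, 5 did not pass and 4 were not tested. With total-count scaling 0 rose and 9 fell. Por was among those that fell (-0.94 ± 0.06 with TMM).

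The nearest tested gene on each side of a member was also compared between genotypes. Without LPS 0 of 18 neighbours passed (1 at an unadjusted p under 0.05), with a median of -0.01, and with LPS 0 of 19 passed (4 at an unadjusted p under 0.05), with a median of 0.04. Over all genes, 841 of 11622 without LPS and 1553 of 11264 with LPS were at an unadjusted p under 0.05. DESeq2 and limma-voom also called 0 neighbours. Over all genes they called 49 and 0 without LPS and 265 and 125 with LPS. Cd300a, which begins 16.5 kb after Gprc5c and encodes an inhibitory receptor, was at 0.18 ± 0.08 without LPS (adjusted p = 0.692) and 0.15 ± 0.10 with LPS (adjusted p = 0.539), and was called higher without untreated WT replicate 1. Peg10, which lies 142 kb before Ppp1r9a, was at 2.08 ± 0.49 with LPS (adjusted p = 0.0753), from 15 reads at most in a library, and was called higher without LPS-treated WT replicate 1. Ncl, the nucleolin gene beside B3gnt7, was at -0.28 ± 0.18 and -0.23 ± 0.11 (adjusted p = 0.846 and 0.38). Tpm4, 126 kb from Cyp4f18 and also a relative of Cnn3, was at -0.04 ± 0.08 and -0.03 ± 0.08 (adjusted p = 0.968 and 0.909). The most abundant neighbours of the other members were Mtres1 beside Cd24a (-0.33 and -0.38), Mterf4 beside Kif1a (-0.07 and -0.33), F3, the tissue factor gene, beside Cnn3 (-0.28 and 0.28), Gpatch2l beside Vash1 (0.13 and 0.24), Smc5 beside Mamdc2 (-0.15 and -0.24), Nt5c3b beside Jup (0.05 and 0.25) and Pon3 beside Ppp1r9a (0.15 and 0.06).

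The cultures carried macrophage markers in every group, such as Adgre1 (788 to 1400 CPM as group means) and Csf1r (997 to 1220 CPM). All 10 macrophage markers were detected, and their sum was lower in KO, at 8550 to 9520 CPM against 11200 to 14300 CPM in WT without LPS and 11000 to 12600 against 14100 to 17600 CPM with LPS. The gap lay in Lyz2: without it the other 9 summed to 5930 to 6490 CPM in KO against 5390 to 7110 in WT without LPS and to 8040 to 9160 against 7500 to 9650 CPM with LPS, which overlapped. Of the 10 markers, 6 had a positive fold change of KO over WT in each condition, 0 were called higher, and Lyz2 was called lower with LPS (-1.17, adjusted p = 0.00143, edgeR). Of 8 erythroid and megakaryocyte markers, the sum was higher in KO, at 134 to 157 against 89.7 to 101 CPM without LPS and 176 to 253 against 135 to 143 CPM with LPS, nearly all of it Pf4, while Hba-a1 and Hbb-bs were at 0. The 8 fibroblast markers summed to 5.26 to 8.55 CPM in KO against 2.05 to 5.09 CPM in WT with LPS, mostly Pdgfrb, and to 0.649 to 1.16 against 0.0737 to 0.774 CPM without LPS, which overlapped.

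For Jup, Kif1a and Ppp1r9a, better known from epithelia and neurons, the levels of those cells' markers were low. The 6 epithelial markers summed to 0.311 to 0.464 CPM in KO against 0.0967 to 0.147 CPM in WT without LPS, mostly Cdh1, with Krt8, Krt18 and Cldn4 at 0, and overlapped with LPS. The 6 neuron markers summed to 0.618 to 0.974 against 0.368 to 0.492 CPM without LPS, mostly Map2, with Snap25, Syt1, Rbfox3 and Stmn2 at 0, and also overlapped with LPS. The sums of the neutrophil, dendritic cell, B cell, T and NK cell, and mast cell and basophil lists overlapped between the genotypes in both conditions. The dendritic cell sum was mostly Itgax. Of the dendritic cell markers tested, 1 of 2 had a positive fold change of KO over WT without LPS and 5 of 5 with LPS. For the neutrophil markers these counts were 4 of 5 and 3 of 4, and 0 markers of either list were called. The part of these marker levels in the differences of the 10 genes was not tested.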

How the data were processed

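RNA of 12 libraries (WT and KO, each without and with LPS, 3 per group) was measured with a poly(A) mRNA kit and single-end reads of 50 bp, per the labels' protocols. The authors deposited whole-number read counts per RefSeq transcript, which are not normalized, and RPKM values, which divide the deposited counts by transcript length and library total. Per the submitters' processing notes, the tools include SAMtools 1.3.1 and STAR 2.5.2b and the build is mm10. How reads were counted, by which tool, and with or without strand is not given in the sources used here. Names came from a RefSeq table (GRCm38.p6) for 35435 of 35745 transcripts and from GENCODE for 193. The 117 unnamed ones, with 0.259% to 0.738% of a library's counts, were left out. The transcript with the most reads over the libraries stood for its gene.

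Counts were scaled by TMM, filtered with filterByExpr and tested with edgeR's quasi-likelihood test (edgeR 4.0.16, R 4.3.3), with Benjamini-Hochberg adjustment over all genes tested and a threshold of 0.05. The genotypes were compared in the 6 libraries of each condition, and LPS in all 12 libraries as 4 groups. Values after ± are standard errors of log2 fold changes (fold change divided by the root of F) unless called SD, and CPM values share 1 TMM scale over the 12 libraries. The scripts were checked on simulated counts. DESeq2 1.42.0, limma 3.58.1 (limma-voom, and limma on log2 of RPKM plus a pseudocount of 0.1 or 1), other scalings, no filter, sums over transcripts, single libraries left out, the female libraries alone and a replicate block were alternatives. With 3 libraries against 3, no exact permutation test of a single gene can reach the threshold, so none was used.

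The members and all lists were chosen with earlier results of these data known, so no p-value is adjusted over the list alone. The text names all members, Dot1l and Lyz2, the relatives and neighbours called between genotypes and otherwise the most highly expressed one of each member, and the 2 genes most like each member (mean log2 CPM of at least 2, members and predicted genes left out). The rule also covers the relatives (28 higher, 26 lower) and neighbours (5 higher, 7 lower) called in the LPS response. They are given as counts, with a few named as examples chosen after their values were seen. Zfp961, whose GENCODE model overlaps Cyp4f18, Peg10 and the relatives called only with a library left out lie outside this rule and were named after their values were seen. Same-numbered untreated and LPS-treated libraries of a genotype deviated together (correlations of 0.20 to 0.57 over genes, each over 0.1), so the numbers pair them, whereas WT and KO libraries of the same number did not all do so (-0.03 to 0.26). A marker gene of the erythroid and megakaryocyte list is not reported here.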

Additional observations from a re-analysis of the deposited data

How the results depend on the processing

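No value of a single gene of the 10 changed sign under any alternative. Total-count scaling, added after the data were seen, and the RPKM with pseudocounts of 0.1 and 1 do not apply TMM: for the LPS response they called 1899, 1879 and 1887 genes higher and 8491, 8407 and 8424 lower, the median of the 10 genes turned from 0.34 to -0.23, -0.22 and -0.11, and 5 of the 10 were called lower instead of 2. Without replicate number 2, 0 of the 10 were called lower, and leaving out single libraries gave 1 to 3. Without LPS, where edgeR called 0 genes between genotypes, total-count scaling called 1 lower, no filter 8 higher and 1 lower, and DESeq2 41 higher and 8 lower. Leaving out single libraries called 0 to 437 higher and 0 to 312 lower, the highest counts without WT replicate 1, with 0 to 5 relatives and 0 to 1 neighbours. With LPS, where 113 were called higher and 14 lower, total-count scaling called 22 lower, no filter 212 and 64, DESeq2 201 and 64, the RPKM 2 lower with either pseudocount, and the libraries without replicate number 2 16 and 1. Leaving out single libraries gave 16 to 359 higher and 1 to 186 lower, again highest without WT replicate 1, with 0 to 7 relatives and 0 to 1 neighbours. Of the relatives with LPS, 4 were called with no filter, 1 with sums over transcripts and 0 with either RPKM setting or without replicate number 2. With a pseudocount of 1, which shrinks low genes, the median of the 10 genes was 0.56 without LPS instead of 1.28 and 0.79 with LPS instead of 1.12. The replicate block between genotypes, whose numbers do not pair these libraries, called 44 genes higher, 3 lower and 0 relatives with LPS. Within the LPS comparison the replicate block changed the call of Mamdc2 only (-0.16). Depth limits Kif1a, Cnn3 and Vash1 in untreated WT cells, with 4 to 13 reads in a library.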

Other observations

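Some libraries were high or low for several of the 10 genes at once. Among the 3 libraries of a group, untreated KO replicate 3 was the highest for 6 genes, LPS-treated WT replicate 1 for 7 (Cd24a, Cnn3, B3gnt7, Vash1, Cyp4f18, Jup and Ppp1r9a) and LPS-treated KO replicate 2 for 7 (Gprc5c, Kif1a, Cnn3, B3gnt7, Vash1, Cyp4f18 and Ppp1r9a). Cd24a and Mamdc2 were lowest in KO replicate 2 in both conditions, the male library of the group.

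Over the 12 libraries the log2 CPM of Cnn3 and Vash1 had a Pearson correlation of 0.992, that of B3gnt7 and Vash1 0.961 and that of Cnn3 and B3gnt7 0.952. Cd24a and Jup were at 0.919, while Cnn3 was at -0.272 with Jup and at 0.021 with Mamdc2. These values describe the pattern over 4 groups and share libraries and depth.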
